A study of Sus scrofa with 9 samples.

Results

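Translation initiation and elongation factors are the proteins that load the ribosome onto an mRNA, find the start codon and then feed it with aminoacyl-tRNA. They were taken as every gene whose only annotated symbol on the array begins with EIF or EEF, without the kinases and inhibitors that act on these factors (EIF2AK and EIF4EBP genes, EEF2K) and without EEF1E1. The rule gave 38 genes, represented by 42 probe sets, out of 12218 singly named genes on the array, and the probe set with the highest mean over all arrays stood for each gene. Symbols for 37 genes matched the RefSeq gene table in full. EIF3H carried a pair of gene identifiers, of which 1 matched. Beyond that mean level the rule used no measured value, although the factors were chosen with earlier results of these data known.

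The tissue was longissimus dorsi, a long muscle of the back, taken from 9 male finishing pigs that weighed about 95 kg when the diets began. For 5 weeks, 3 pigs (pigs 1, 2 and 3) received a lysine-deficient diet, 3 (pigs 5, 6 and 7) a lysine-adequate diet and 3 (pigs 9, 10 and 11) a lysine-excess diet, and they are called deficient, adequate and excess pigs here. Lysine is an essential amino acid for pigs and commonly the first to limit growth on cereal diets. The labels give no breed and no other treatment, and each array holds the RNA of 1 pig.

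Initiation begins when eIF2, a trimer of alpha, beta and gamma subunits, binds GTP and the initiator tRNA and brings them to the small ribosomal subunit. eIF2B reloads eIF2 with GTP, and phosphorylation of the alpha subunit blocks this step when amino acids run short. The large eIF3 complex scaffolds the small subunit, while the cap-binding protein eIF4E, the helicase eIF4A and the scaffold eIF4G recruit the mRNA in a step governed by mTORC1. Elongation is carried by eEF1A, which delivers aminoacyl-tRNA, by the eEF1B exchange factor that recharges it, and by eEF2, which moves the ribosome along. In human cells many elongation factor mRNAs and some eIF3 mRNAs carry a 5′ terminal oligopyrimidine (TOP) tract, through which mTORC1 controls their translation. All values below are mRNA levels on the deposited log scale, taken as log2, and say nothing of protein or phosphorylation.

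The tissue label was read against its markers first. Of 10 skeletal muscle markers, 3 had a singly named probe set: ACTA1 lay between 12.40 and 12.93 over the 9 pigs, MYH1 between 12.51 and 13.25 and MYH7 between 12.34 and 12.96, all far above the array-wide median of 5.07. All 6 measured fibroblast markers and 3 of 4 adipocyte markers also lay above that median, while 0 of 3 red-cell markers did, and no satellite cell marker was measured. The array quality weights estimated in limma were lowest for the excess diet. They were 0.68, 0.19 and 0.22 for excess pigs 9, 10 and 11, against 0.90 to 2.46 for the other pigs, so leaving out pig 11 alone does not even them out. One array stood apart by the spread of its values. The array of excess pig 11 had the narrowest spread of values, with an SD of 1.82 against 1.93 to 1.99 on the other 8, and correlated with the others at 0.904 to 0.956. Its bright probe sets read low: the brightest 25% of all probe sets, 6890 with a mean level above 6.854, had a median of 8.03 on this array against 8.41 to 8.55 elsewhere. Since 30 of the 38 translation factors belong to it, many results that involve the excess diet are also given without this pig, and many shares are also given over the brightest 25%.

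The largest difference of deficient pigs from both adequate and excess pigs was in EIF2S2, which encodes the beta subunit of eIF2 and contacts both eIF5 and eIF2B. EIF2S2 read 11.01, 10.97 and 10.78 in deficient pigs, 10.51, 10.29 and 10.39 in adequate pigs and 10.29, 10.45 and 10.17 in excess pigs. All 3 deficient pigs lay above all 6 other pigs, with a gap of 0.27 to adequate pig 5, and the adequate and excess pigs overlapped. The means were 10.92 ± 0.12 in deficient, 10.40 ± 0.11 in adequate and 10.30 ± 0.14 in excess pigs (SD). Deficient exceeded adequate pigs by 0.52 ± 0.10, a 1.44-fold difference with a 95% interval of 0.28 to 0.76, at an unadjusted p of 0.00112. Against excess pigs the difference was 0.62 ± 0.10, or 1.54-fold, with an interval of 0.38 to 0.86 and an unadjusted p of 3.91e-04. Neither passed the adjustment over all 27558 probe sets in the limma fit with Benjamini-Hochberg adjustment, with adjusted p of 1.00 against adequate and 0.872 against excess pigs. Excess and adequate pigs differed by -0.10 ± 0.10, with an interval of -0.34 to 0.15. Without pig 11 the deficient minus excess difference was 0.55 ± 0.10 and the excess minus adequate difference -0.03 ± 0.10. A second EIF2S2 probe set held identical values in every pig, so it was counted once and adds no independent reading.

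The partners of EIF2S2 in the trimer differed less. EIF2S3, the gamma subunit that binds GTP and the initiator tRNA, read 9.54, 9.61 and 9.51 in deficient pigs, 9.33, 9.37 and 9.37 in adequate pigs and 9.40, 9.40 and 8.88 in excess pigs. Its 3 deficient pigs again lay above all 6 others, with a gap of 0.11, and pig 11 was the lowest. Deficient minus adequate was 0.20 ± 0.14 (unadjusted p 0.189) and deficient minus excess 0.33 ± 0.14 (unadjusted p 0.0461, limma adjusted p 0.872). Leaving out pig 11 gave 0.20 ± 0.05 against adequate (unadjusted p 0.00596) and 0.15 ± 0.06 against excess pigs (unadjusted p 0.0313), with an adjusted p of 1.00 in limma for both. EIF2S1, the alpha subunit whose phosphorylation restrains initiation, read 9.00, 8.74 and 8.80 in deficient pigs, 8.75, 8.75 and 8.80 in adequate pigs and 8.77, 8.62 and 8.17 in excess pigs. Deficient pig 1 was the highest, the other deficient pigs lay close to the adequate pigs, and the difference of 0.08 ± 0.15 lay within its error. Taken within each pig, EIF2S2 minus the mean of EIF2S1 and EIF2S3 was 1.74, 1.79 and 1.63 in deficient, 1.48, 1.23 and 1.30 in adequate and 1.20, 1.44 and 1.64 in excess pigs. Deficient pigs thus exceeded adequate pigs by 0.38 without overlap, with an exact two-sided permutation p of 0.1, the smallest that 3 against 3 pigs allow. Deficient pigs exceeded excess pigs by 0.29 on average (exact permutation p 0.2), and here pig 11 overlapped with the deficient pigs. This within-pig measure was added after the values had been seen.

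**Figure D1:**
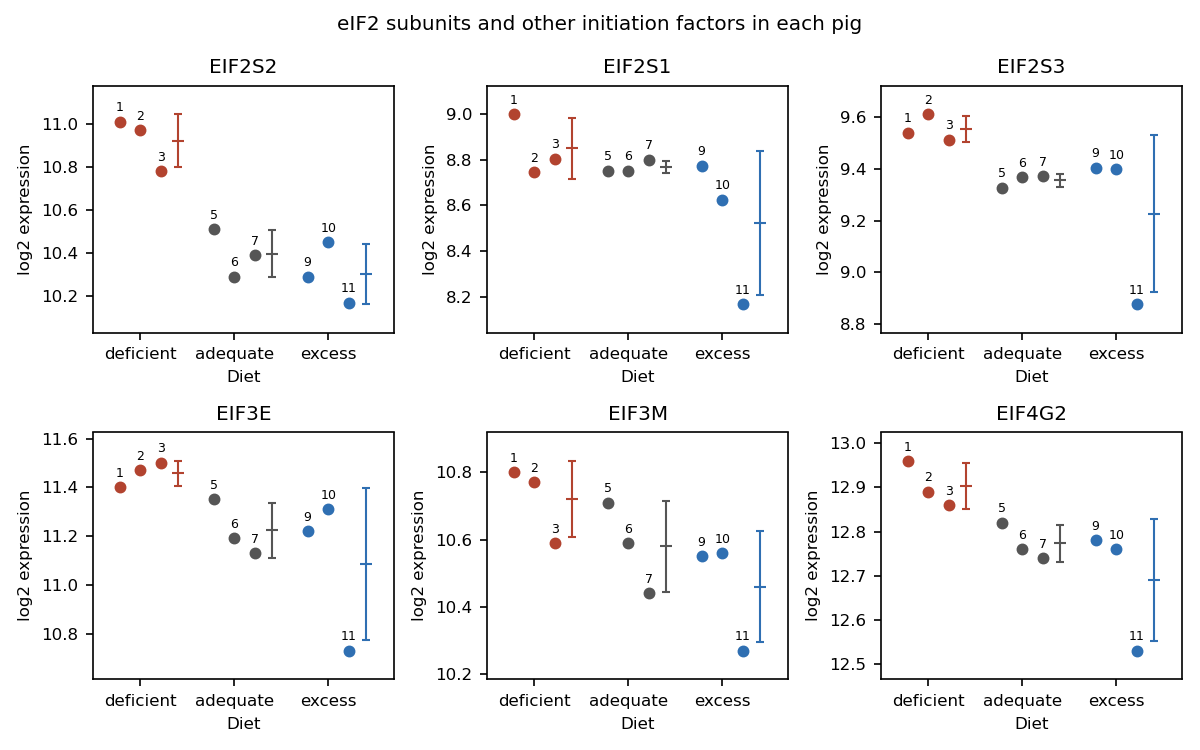
Log2 expression (vertical axis) of 6 initiation factor genes in each of 9 pigs, by diet; numbered points are pigs and the bars beside them give the mean ± SD of 3 pigs. In EIF2S2, EIF2S3, EIF3E and EIF4G2 all deficient pigs sit above all adequate and excess pigs, and excess pig 11 is the lowest pig in all 6 panels.

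The rest of the start codon group showed smaller differences. EIF1, which guards the fidelity of start codon choice, read 12.95, 13.01 and 13.04 in deficient pigs, 13.00, 12.88 and 12.99 in adequate pigs and 13.01, 12.96 and 12.90 in excess pigs. EIF1AX, its partner in scanning, read 11.24, 11.23 and 11.19 in deficient pigs, 11.21, 11.19 and 11.19 in adequate pigs and 11.19, 11.19 and 11.07 in excess pigs. For both, the 3 diets overlapped, and deficient minus adequate was 0.05 ± 0.06 for EIF1 and 0.02 ± 0.06 for EIF1AX, each within its error. EIF5B, the GTPase that joins the large subunit, read 8.71, 8.54 and 8.55 in deficient pigs, 8.63, 8.56 and 8.41 in adequate pigs and 8.45, 8.50 and 8.06 in excess pigs. Its deficient pigs lay above all excess pigs but overlapped with adequate pigs, with 0.27 ± 0.13 against excess pigs and 0.13 ± 0.09 once pig 11 was left out. EIF2D, which can deliver initiator tRNA without GTP and helps recycle ribosomes, read 6.53, 6.54 and 6.72 in deficient pigs, 6.68, 6.82 and 6.77 in adequate pigs and 6.64, 6.64 and 6.35 in excess pigs. Every excess pig lay below every adequate pig, with a mean difference of -0.21 ± 0.10 (unadjusted p 0.0728, limma adjusted p 0.757) that was -0.11 ± 0.08 without pig 11, and deficient pigs overlapped with both. The other genes of the group were EIF1B, a paralog of EIF1, EIF2A, an initiator tRNA-binding protein outside the eIF2 trimer, and EIF1AD, placed here by its symbol. These genes differed by -0.02 to 0.08 between deficient and adequate pigs. All 3 deficient pigs lay above all excess pigs in EIF2A, but only just, since deficient pig 3 and excess pig 9 both round to 11.29. The EIF2A difference was 0.17 ± 0.09 with all pigs and 0.06 ± 0.06 without pig 11. Over the 10 genes of this group, 8 had a higher mean in deficient than in adequate pigs, 10 a lower mean in excess than in adequate pigs, and 10 a higher mean in deficient than in excess pigs. Without pig 11, 7 of the 10 had a lower mean in excess than in adequate pigs (median -0.02, against -0.16 with it) and 8 a higher mean in deficient than in excess pigs (median 0.09, against 0.24 with it). Most of the 6890 brightest probe sets went the same way with all pigs. Of them, 5690 were lower in excess than in adequate pigs and 5170 higher in deficient than in excess pigs. Without pig 11 these numbers were 3871 and 3363. Fewer, 3037 of the 6890, were higher in deficient than in adequate pigs.

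The exchange factor eIF2B was represented by 3 of its subunits. EIF2B1, its alpha subunit, read 7.40, 7.34 and 7.34 in deficient pigs, 7.23, 7.34 and 7.43 in adequate pigs and 7.35, 7.50 and 6.96 in excess pigs. EIF2B5, the catalytic epsilon subunit, read 6.38, 6.63 and 6.52 in deficient pigs, 6.37, 6.38 and 6.43 in adequate pigs and 6.39, 6.38 and 5.90 in excess pigs. Diets overlapped in both genes when deficient and adequate pigs were compared, and the differences of 0.02 ± 0.13 for EIF2B1 and 0.12 ± 0.14 for EIF2B5 lay within their errors. The third subunit gene, EIF2B2, differed by 0.04 ± 0.24 between deficient and adequate pigs and had its lowest value, 7.41, in pig 11.

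Among the 8 measured eIF3 subunits, EIF3E showed the pattern of EIF2S3. EIF3E read 11.40, 11.47 and 11.50 in deficient pigs, 11.35, 11.19 and 11.13 in adequate pigs and 11.22, 11.31 and 10.73 in excess pigs. All 3 deficient pigs lay above the other 6 pigs, with a gap of 0.05 to adequate pig 5. Deficient minus adequate was 0.23 ± 0.15 (unadjusted p 0.153) and deficient minus excess 0.37 ± 0.15 (unadjusted p 0.0385, limma adjusted p 0.872). Without pig 11 the values were 0.23 ± 0.07 (unadjusted p 0.0146) and 0.19 ± 0.08 (unadjusted p 0.0507). EIF3M, another subunit, read 10.80, 10.77 and 10.59 in deficient pigs, 10.71, 10.59 and 10.44 in adequate pigs and 10.55, 10.56 and 10.27 in excess pigs. Its deficient pigs lay above all excess pigs and overlapped with adequate pigs, with a deficient minus excess difference of 0.26 ± 0.11 (unadjusted p 0.0493, limma adjusted p 0.872) that was 0.16 ± 0.10 without pig 11. EIF3A, the largest subunit, read 9.42, 9.41 and 9.37 in deficient pigs, 9.47, 9.30 and 9.32 in adequate pigs and 9.55, 9.25 and 8.92 in excess pigs, and its diets overlapped in every comparison. The remaining 5 subunits, EIF3D, EIF3G, EIF3H, EIF3J and EIF3K, differed by -0.05 to 0.10 between deficient and adequate pigs. The lowest excess mean relative to adequate pigs in this group was that of EIF3D, at -0.37 ± 0.23, and it was -0.07 without pig 11. EIF3J had 2 further probe sets, at which deficient minus adequate was 0.13 and -0.01, beside -0.01 at the one used.

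In the cap-binding group, EIF4G2 encodes a relative of the eIF4G scaffold that lacks the eIF4E-binding site and serves cap-independent initiation. EIF4G2 read 12.96, 12.89 and 12.86 in deficient pigs, 12.82, 12.76 and 12.74 in adequate pigs and 12.78, 12.76 and 12.53 in excess pigs. All 3 deficient pigs lay above the other 6 pigs, with a gap of 0.04, in a gene that ran only from 12.74 to 12.96 outside pig 11. Deficient minus adequate was 0.13 ± 0.08 (unadjusted p 0.155) and deficient minus excess 0.21 ± 0.08 (unadjusted p 0.0341, limma adjusted p 0.872), with 0.13 ± 0.05 and 0.13 ± 0.06 without pig 11 (unadjusted p 0.0480 and 0.0674). EIF4E, which binds the cap, read 11.23, 11.19 and 11.03 in deficient pigs, 11.37, 10.93 and 11.21 in adequate pigs and 11.00, 10.99 and 10.73 in excess pigs. Its deficient pigs lay above all excess pigs and within the range of adequate pigs, and excess minus adequate was -0.27 ± 0.13 (unadjusted p 0.0768, limma adjusted p 0.757) and -0.18 ± 0.13 without pig 11. EIF4A1 and EIF4A2 encode interchangeable forms of the helicase. EIF4A1 read 9.25, 8.95 and 9.47 in deficient pigs, 9.58, 8.97 and 9.00 in adequate pigs and 9.10, 8.90 and 8.81 in excess pigs. EIF4A2 read 11.13, 11.45 and 11.31 in deficient pigs, 11.22, 11.24 and 11.25 in adequate pigs and 11.39, 11.21 and 10.93 in excess pigs. Pigs of one diet differed by up to 0.61 in EIF4A1 (adequate pigs 5 and 6), more than any difference between its diet means, and the diets overlapped for both genes. EIF4E2, which competes for the cap and represses translation, read 6.64, 6.50 and 6.89 in deficient pigs, 7.02, 6.71 and 6.71 in adequate pigs and 6.73, 6.60 and 6.23 in excess pigs. Adequate and excess pigs overlapped at pig 9, and excess minus adequate was -0.30 ± 0.16 (unadjusted p 0.106), or -0.15 without pig 11. The other cap-binding paralog, EIF4E3, differed by 0.16 ± 0.15 between deficient and adequate pigs. EIF4E1B, an oocyte form in other vertebrates, stayed between 3.98 and 4.23, below the array-wide median, although its excess pigs lay above all adequate pigs. EIF4A3, the helicase of the exon junction complex, had the widest range of the factors, with 6.87 in pig 11 against 7.93 to 8.50 in the other pigs. EIF4ENIF1, which carries eIF4E into the nucleus, was the only one of the 38 genes whose mean ran upwards with dietary lysine, at 6.83 in deficient, 6.94 in adequate and 6.96 in excess pigs, and its diets overlapped. Without pig 11 its excess mean no longer exceeded its adequate mean.

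**Figure D2:**
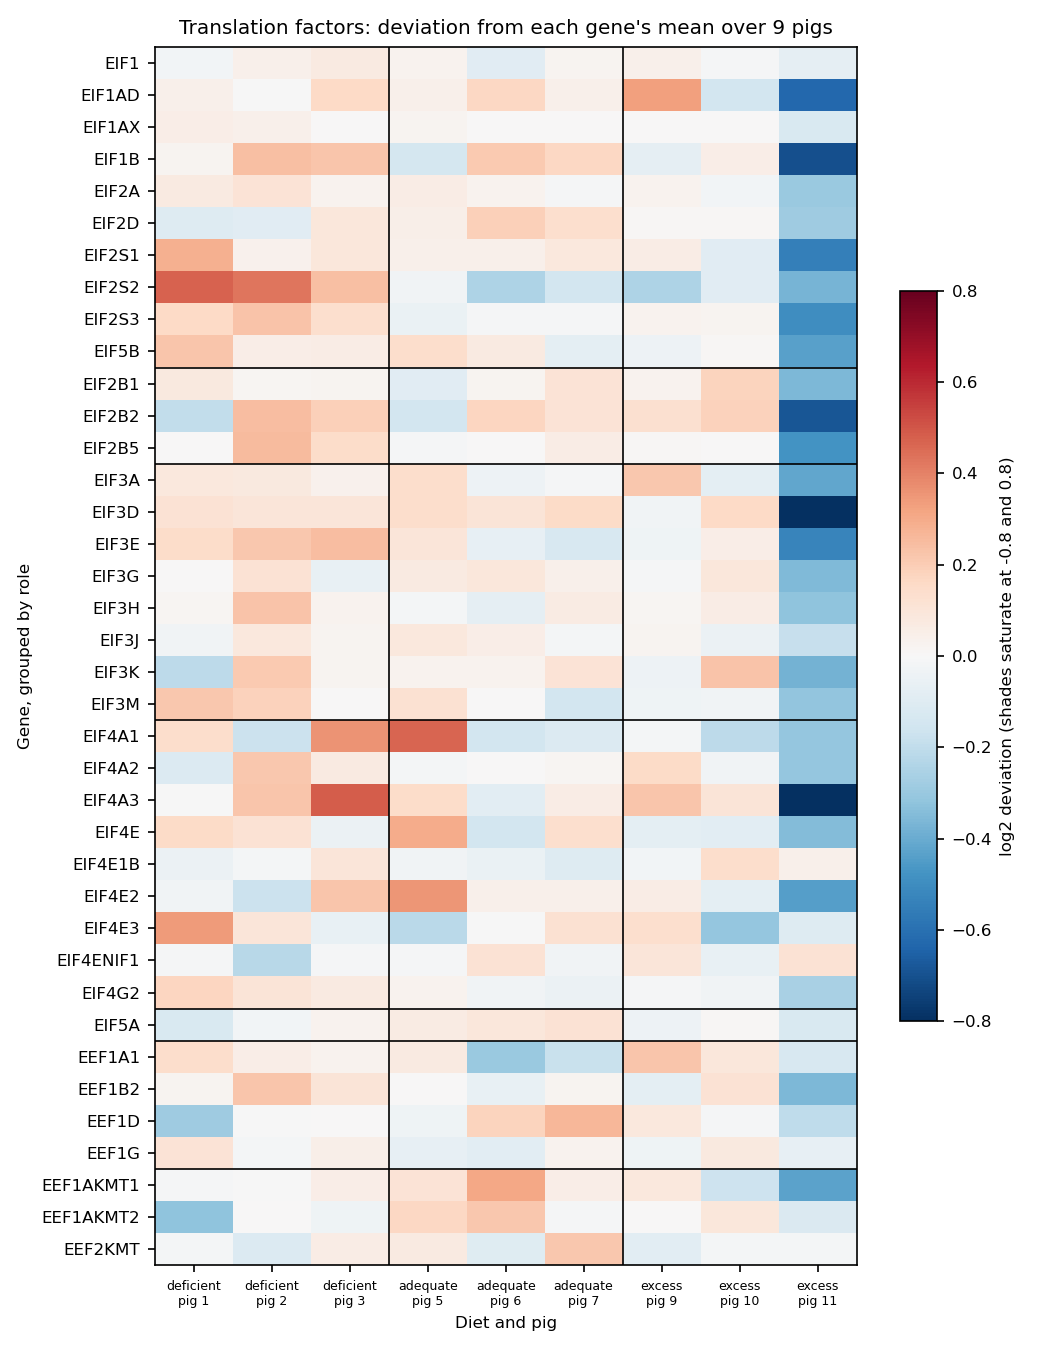
Deviation of each of 38 translation factor genes (rows, grouped by role between horizontal lines) from its own mean over 9 pigs (columns), on the log2 scale; red is above and blue below that mean. EIF2S2 is red in the 3 deficient pigs and blue in the other 6, and the column of excess pig 11 is blue in most rows.

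In EIF5A and the 4 measured elongation factor genes, the deficient pigs did not lie above all other pigs. EIF5A carries hypusine, a lysine residue modified with spermidine, and relieves stalled ribosomes. EIF5A read 11.30, 11.40 and 11.45 in deficient pigs, 11.49, 11.51 and 11.54 in adequate pigs and 11.38, 11.43 and 11.30 in excess pigs. Its 3 adequate pigs lay above all pigs of both other diets, with a gap of 0.04 to deficient pig 3. Deficient minus adequate was -0.13 ± 0.07 (unadjusted p 0.0966, limma adjusted p 1.00) and excess minus adequate -0.14 ± 0.07 (unadjusted p 0.0635, limma adjusted p 0.757). The excess minus adequate difference was -0.11 without pig 11, and its sign turned, to 0.03, when each array was centred on its brightest 25% of probe sets.

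Neither EEF2 nor EEF1A2, a paralog of EEF1A1, had a singly named probe set, so neither was read. EEF1A1, which encodes a carrier of aminoacyl-tRNA, read 12.43, 12.34 and 12.32 in deficient pigs, 12.36, 11.99 and 12.11 in adequate pigs and 12.51, 12.38 and 12.16 in excess pigs. The adequate pigs were the most scattered, with pigs 6 and 7 the lowest of all 9, and the diets overlapped. Both unbalanced diets had a higher mean than the adequate diet, by 0.21 ± 0.12 for deficient and 0.20 ± 0.12 for excess pigs. Without pig 11 the excess minus adequate difference was 0.29 ± 0.11 (unadjusted p 0.0367, limma adjusted p 1.00). The eEF1B exchange complex was read through EEF1B2, EEF1D and EEF1G. EEF1B2, which encodes a catalytic subunit, read 10.73, 10.93 and 10.81 in deficient pigs, 10.71, 10.65 and 10.73 in adequate pigs and 10.63, 10.82 and 10.35 in excess pigs. EEF1G, a structural subunit, read 10.98, 10.86 and 10.92 in deficient pigs, 10.81, 10.79 and 10.90 in adequate pigs and 10.84, 10.95 and 10.81 in excess pigs. EEF1D, another catalytic subunit, read 9.39, 9.67 and 9.67 in deficient pigs, 9.64, 9.85 and 9.93 in adequate pigs and 9.75, 9.66 and 9.47 in excess pigs. Deficient minus adequate was 0.13 ± 0.12 for EEF1B2, 0.09 ± 0.07 for EEF1G and, in the other direction, -0.23 ± 0.12 for EEF1D (unadjusted p 0.0959), and deficient and adequate pigs overlapped in all 3 genes. Over the 6 measured genes of a list of 9 human TOP mRNAs (EEF1A1, EEF1B2, EEF1D, EEF1G, EIF3E and EIF3H), 5 had a higher and 1 a lower mean in deficient than in adequate pigs, with a median difference of 0.11. Of all 27558 probe sets 14582 were higher in this comparison, and of the 6890 brightest 3037 were. In excess against adequate pigs 2 of the 6 TOP genes were higher with all pigs (median -0.09) and 5 without pig 11 (median 0.05).

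The 3 genes for enzymes that methylate lysines of the elongation factors had lower means under both unbalanced diets. EEF1AKMT1, which methylates eEF1A, read 6.29, 6.29 and 6.35 in deficient pigs, 6.41, 6.61 and 6.35 in adequate pigs and 6.38, 6.13 and 5.87 in excess pigs. Excess minus adequate was -0.33 ± 0.13 (unadjusted p 0.0376, limma adjusted p 0.757), although the pigs overlapped at excess pig 9, and the difference was -0.20 ± 0.10 without pig 11 (unadjusted p 0.0996). EEF1AKMT2, which acts on another lysine of eEF1A, read 5.51, 5.84 and 5.80 in deficient pigs, 6.00, 6.05 and 5.82 in adequate pigs and 5.84, 5.92 and 5.72 in excess pigs. Deficient pig 2 overlapped with adequate pig 7, and deficient minus adequate was -0.24 ± 0.11 (unadjusted p 0.0610, limma adjusted p 1.00). At its second probe set, dimmer than the array-wide median in most pigs, deficient and excess pigs both lay below all adequate pigs, with differences of -0.17 and -0.12. EEF2KMT, which methylates eEF2, differed by -0.08 ± 0.09 in deficient and -0.10 ± 0.09 in excess pigs against adequate pigs.

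Counted over all 38 factors, few separated deficient from adequate muscle. No factor reached an adjusted p below 0.05 in limma, where 0% of all probe sets did so as well. At an unadjusted p below 0.05, 1 factor (EIF2S2) was higher in deficient pigs, where 0.842% of all probe sets and 1.2% of the brightest 25% were, and 0 were lower, against 1.01% and 1.83%. By non-overlap of the pigs, 4 factors (EIF2S2, EIF2S3, EIF3E and EIF4G2) were higher in deficient pigs, or 10.5% of the 38 against 3.77% of all probe sets and 4.57% of the brightest 25%. In the other direction 1 factor (EIF5A) was lower, against 3.07% and 5.40%. The median difference of the factors was 0.04, with 24 higher and 14 lower, beside 0.0071 over all probe sets and -0.02 over the brightest 25%. The fit without pig 11, which changes only the estimate of spread here, called the 4 non-overlapping genes at an unadjusted p below 0.05 as higher, or 10.5%, against 1.63% of all probe sets and 2.79% of the brightest 25%.

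**Figure D3:**
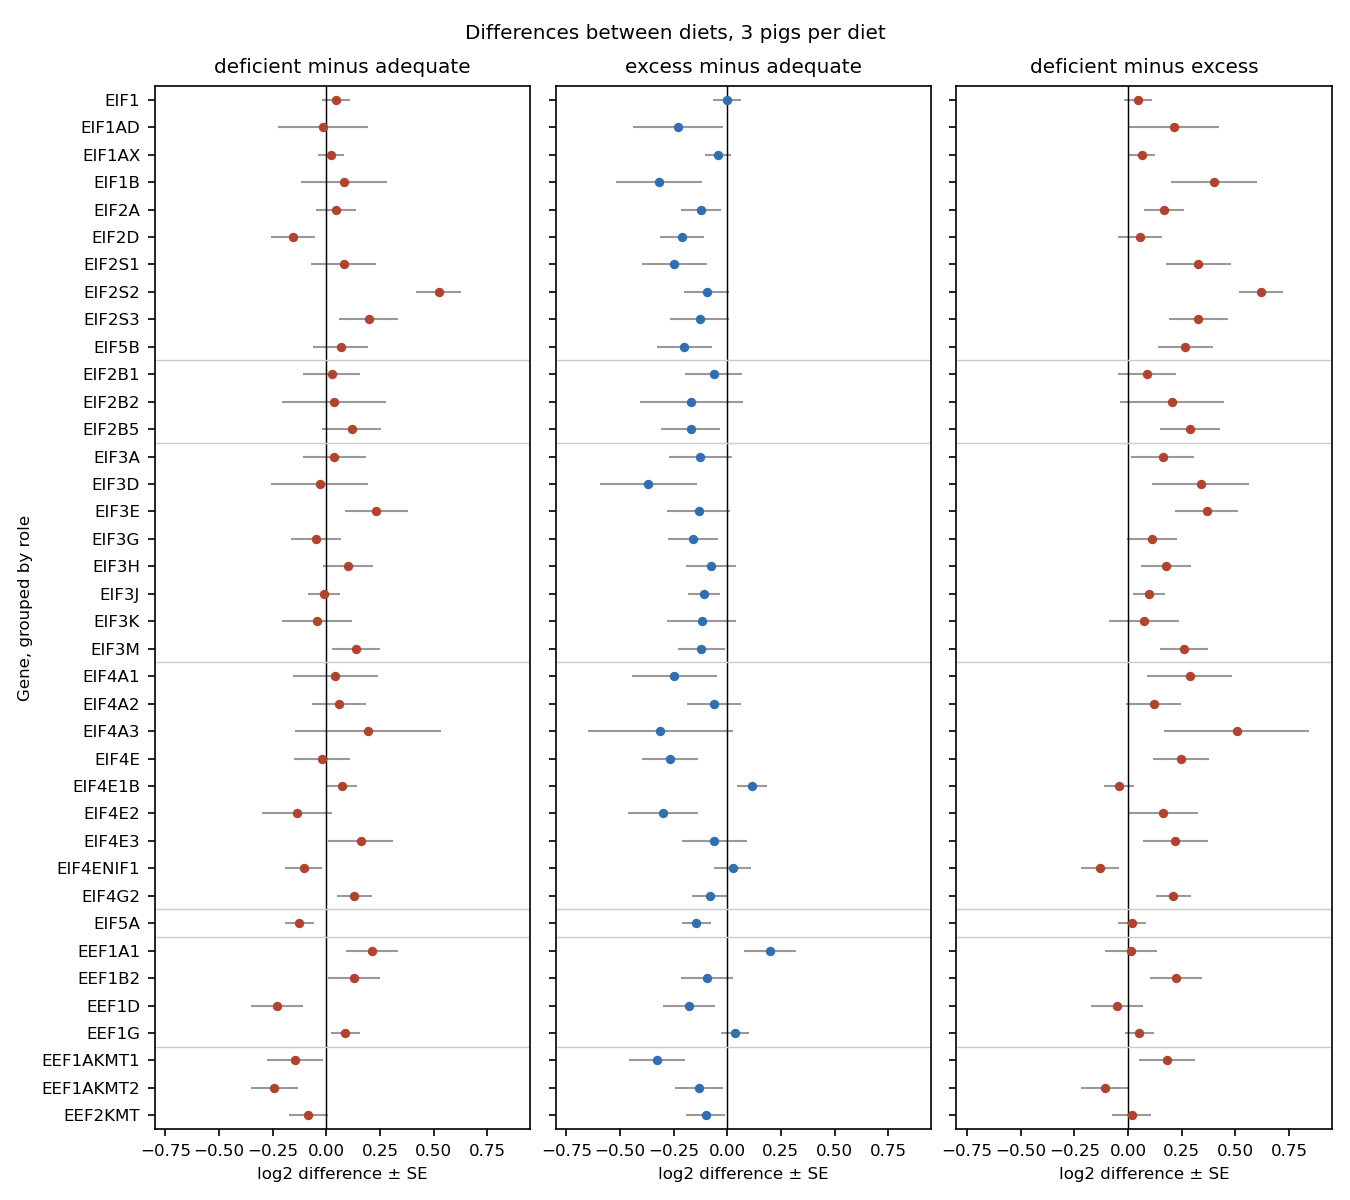
Log2 difference between diets (horizontal axis, points) with its standard error (bars) for 38 translation factor genes grouped by role, from the limma fit over 9 pigs. EIF2S2 stands at 0.52 in deficient minus adequate and 0.62 in deficient minus excess, and 34 of 38 points lie below 0 in excess minus adequate.

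In excess against adequate muscle, 34 of the 38 factors had a lower mean in excess pigs, with a median difference of -0.13. The brightest 25% of all probe sets had a median of -0.16, against 0.0006 over all probe sets, and pig 11 was the lowest of the 9 pigs for 29 of 38 factors, as it was for 67.4% of the brightest 25%. Without pig 11 the median of the factors was -0.01, with 15 higher and 23 lower, and centring each array on its brightest 25% of probe sets gave 0.05, with 26 higher and 12 lower. That centring moved the median of all probe sets by 0.17. No factor reached an adjusted p below 0.05 in limma, against 0% of all probe sets. At an unadjusted p below 0.05, 0 factors were higher in excess pigs, against 1.35% of all probe sets, and 1 (EEF1AKMT1) was lower, against 2.21%. Without overlap, 1 factor (EIF4E1B) was higher, against 3.20%, and 2 (EIF2D and EIF5A) were lower, against 3.84% of all probe sets and 7.68% of the brightest 25%. Without pig 11, 1 factor (EEF1A1) was higher at an unadjusted p below 0.05, against 1.18% of all probe sets, and 0 were lower, against 1.26%. By non-overlap 3 were then higher (EEF1A1, EIF2S3 and EIF4E1B, against 6.63%) and 2 lower (EIF2D and EIF5A, against 6.36%).

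**Figure D4:**
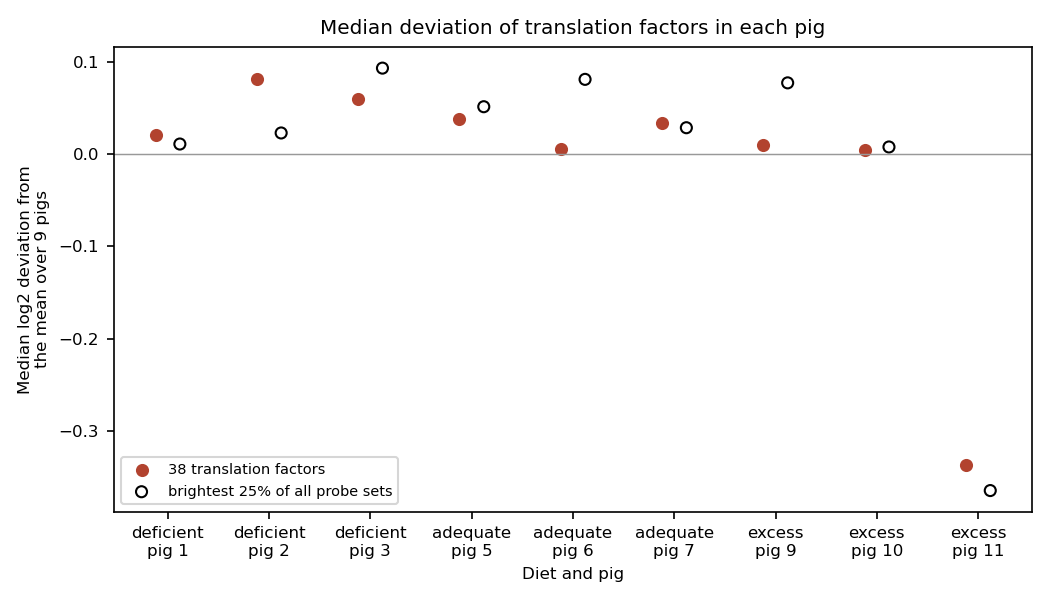
Median log2 deviation from the mean over 9 pigs (vertical axis) for 38 translation factors (filled) and for the brightest 25% of all probe sets (open), by pig. Excess pig 11 stands at -0.34 for the factors and -0.365 for the brightest 25%, while the other 8 pigs lie between 0.0046 and 0.0936 on both.

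Deficient against excess muscle gave the highest counts of factors. At an unadjusted p below 0.05, 5 factors (EIF2S2, EIF4G2, EIF3E, EIF2S3 and EIF3M) were higher in deficient pigs, or 13.2% against 2.84% of all probe sets and 7.5% of the brightest 25%, and 0 were lower, against 1.23%. No factor reached an adjusted p below 0.05 in limma, against 0% of all probe sets. Without overlap, 8 factors (the same 5 with EIF2A, EIF4E and EIF5B) were higher, or 21.1% against 4.28% of all probe sets and 10.1% of the brightest 25%, and 0 were lower, against 2.19%. With pig 11 left out, the same 8 genes did not overlap, against 7.13% of all probe sets and 10.8% of the brightest 25%, while 2 genes (EIF2S2 and EIF2S3) remained at an unadjusted p below 0.05, against 2.09% and 4.57%. The median of the factors was 0.17 with all pigs (34 higher, 4 lower) and 0.03 without pig 11 (24 higher, 14 lower), beside 0.13 and -0.0040 over the brightest 25%.

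**Figure D5:**
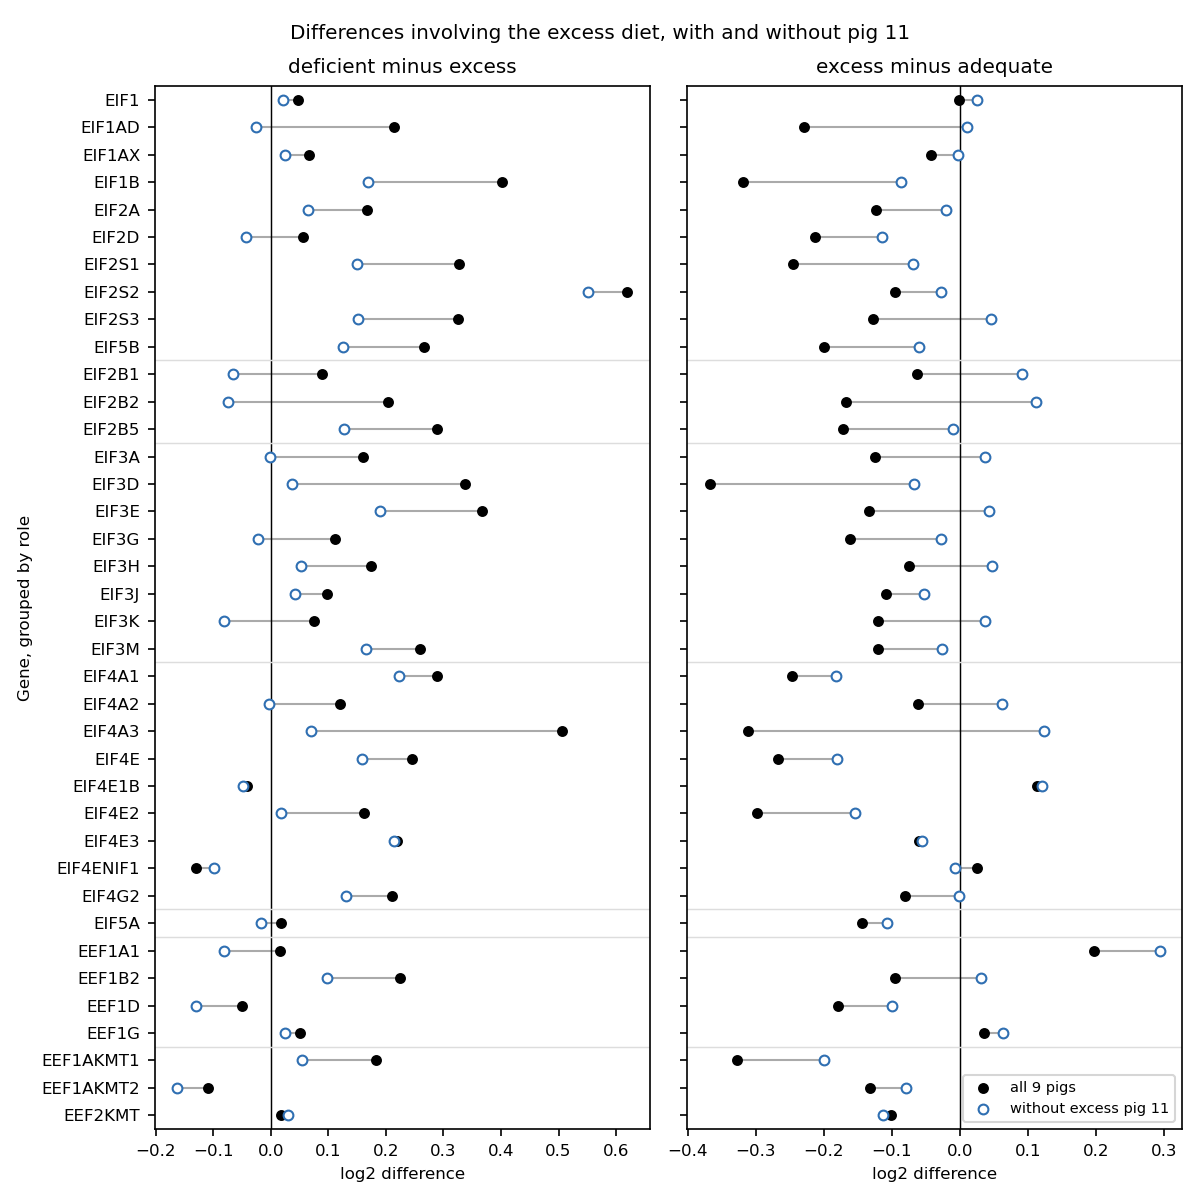
Log2 differences of 38 translation factor genes that involve the excess diet, with all 9 pigs (filled) and without excess pig 11 (open). In deficient minus excess, EIF2S2 stands at 0.62 with and 0.55 without pig 11, while EIF4A3 stands at 0.51 with and 0.07 without it.

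Setting the deficient pigs against the other 6 pigs at once, 4 factors (EIF2S2, EIF2S3, EIF3E and EIF4G2) were higher in every deficient pig, or 10.5%, where 1.19% of all probe sets and 3.00% of the brightest 25% were. The comparisons with adequate and with excess pigs share the deficient pigs, so these counts are not independent of each other. Without pig 11 it was again these 4 genes, against 1.66% and 3.06%. No factor was lower in every deficient pig than in all others, against 0.515% of all probe sets and 0.595% of the brightest 25%. EIF5A alone was higher in every adequate pig than in all others, against 0.758% of all probe sets and 1.51% of the brightest 25%.

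Markers of other cell types also had unequal means by diet. All 6 fibroblast markers had lower means than in adequate pigs under both other diets, with medians of -0.42 in deficient and -0.38 in excess pigs, and their summed log2 levels ran from 59.15 to 61.07 in deficient, 61.62 to 63.70 in adequate and 58.06 to 60.93 in excess pigs. The 4 adipocyte markers had higher means in deficient than in adequate pigs (median 0.26) and lower ones in excess than in adequate pigs (median -0.33), with sums of 26.89 to 28.21, 25.69 to 27.69 and 24.89 to 25.81 from the deficient to the excess diet. Without deficient pig 3, 2 adipocyte markers were higher and 2 lower in deficient than in adequate pigs, with a median of 0.135. The 3 smooth muscle markers had lower means than in adequate pigs under both other diets (medians -0.31 in deficient and -0.50 in excess pigs), the 4 endothelial markers medians of 0.12 and 0.05 and the 5 immune markers medians of -0.10 and -0.02 in the same comparisons. Without pig 11 the medians of excess minus adequate were -0.30 for fibroblast, -0.25 for adipocyte (1 of 4 higher), -0.35 for smooth muscle, 0.11 for endothelial and -0.04 for immune markers. Sums of the 3 muscle markers were 37.63 to 38.09 in deficient, 37.71 to 38.44 in adequate and 38.20 to 38.56 in excess pigs. The part of these shifts in the values of EIF2S2 and the other factors was not tested, and in whole muscle fewer cells of a type and less RNA per cell cannot be told apart.

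Genes that act on these factors were read from a list of 35 kinases, inhibitors, poly(A)-binding, release and recycling factors, of which 28 were measured. In limma 0 were at an unadjusted or adjusted p below 0.05 between deficient and adequate pigs, where 12 had a higher and 16 a lower mean, and where 0.842% of all probe sets were higher and 1.01% lower at an unadjusted p below 0.05. In excess against adequate pigs all 28 had a lower mean and 1 reached an unadjusted p below 0.05 (PABPC1), against 2.21% of all probe sets and 4.25% of the brightest 25%, while without pig 11 the split was 14 higher and 14 lower. PABPC1, the poly(A)-binding protein that joins mRNA ends through eIF4G, read 10.51, 10.43 and 10.48 in deficient pigs, 10.44, 10.35 and 10.32 in adequate pigs and 10.27, 10.10 and 9.91 in excess pigs. Excess pigs lay below all others, with excess minus adequate at -0.28 ± 0.10 (unadjusted p 0.0215, limma adjusted p 0.757) and -0.18 ± 0.07 without pig 11 (unadjusted p 0.0443). Between deficient and excess pigs 3 of the 28 were higher at an unadjusted p below 0.05, namely PABPC1 at 0.38 ± 0.10, RHEB, the GTPase that switches on mTORC1, at 0.38 ± 0.16 and ABCE1, a ribosome recycling factor, at 0.33 ± 0.14, and 0 were lower, where 2.84% of all probe sets and 7.5% of the brightest 25% were higher. Without pig 11 only PABPC1 stayed at an unadjusted p below 0.05, at 0.28 ± 0.07, against 2.09% of all probe sets and 4.57% of the brightest 25%, while RHEB was at 0.23 ± 0.14 (unadjusted p 0.145) and ABCE1 at 0.27 ± 0.16 (unadjusted p 0.128). With all pigs none of the 3 passed the adjustment, each with a limma adjusted p of 0.872. For the eIF2 kinases EIF2AK1, EIF2AK2 and EIF2AK3, which phosphorylate the alpha subunit, the pigs overlapped in all 3 comparisons. EIF2AK4, a further eIF2 kinase, had no singly named probe set and was not read. The same held for EIF4EBP1, EIF4EBP3, MKNK2, RPTOR, LARP1 and MCTS1.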

How the data were processed

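Log2 expression values of 27558 probe sets in 9 arrays, 1 per pig, were used as deposited. The base of the log is inferred from the range of the values (3.097 to 14.3), and folds rest on it. Per the labels' protocols, total RNA from frozen muscle was amplified to sense-strand cDNA and hybridised to whole-transcript arrays. The submitters' processing notes list GCOS 1.2 and Partek. How background, probe summary and scaling were handled is not stated in these sources. Gene names come from the platform annotation, and sequences were not used here.

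One mean per diet was fitted to all probe sets with limma 3.58.1 in R 4.3.3 (lmFit, contrasts, eBayes), over all 9 arrays and with no filter, and p-values were two-sided and adjusted by Benjamini-Hochberg over all probe sets. Errors beside differences are standard errors of this fit. The replicate is the pig. The fit was run on simulated data with independent noise and planted changes larger than any difference of the factors here. That run does not show how well differences of the size seen here are found. With 3 pigs per diet the precision of the fit is limited. Pigs of a diet do not overlap where all values of one diet lie above all of the other. Values by pig are given for 17 measured core factors (of 23 listed) and for the 6 factors of smallest p in each comparison, and others were named where a count or a range rested on them. The core factors without a singly named probe set were EIF4G1, EIF4B, EIF5, EIF6, EEF1A2 and EEF2. The factors and gene lists were chosen with earlier results of these data known. The results were recomputed under 18 alternatives for each comparison (scaling, arrays in the fit, weights, array SD as a covariate, prior, dim probe sets, probe sets per gene, each pig left out). Human gene roles are used as background for the pig genes.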

Additional observations from a re-analysis of the deposited data

How the results depend on the processing

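EIF2S2 was higher in deficient pigs under all 18 alternatives, by 0.47 to 0.59 against adequate pigs (limma adjusted p 0.310 to 1.00) and by 0.46 to 0.69 against excess pigs (adjusted p 0.279 to 1.00). The count of factors at an unadjusted limma p below 0.05 was 1 in deficient against adequate pigs. It was 2 with quantile normalization applied again, 3 with only the 6 arrays compared and 3 with the array SD as a covariate. All of these were higher in deficient pigs. With array quality weights it was 9, of which 5 were higher and 4 lower. It was 2 with the mean over the probe sets of a gene and 2 with centring on the brightest 25%, an alternative chosen after seeing the data. Numbers over all 27558 probe sets moved as well. In the main fit 232 were higher and 279 lower, against 644 and 680 with the array SD as a covariate and 137 and 219 with that centring. In excess against adequate pigs the count of 1 was 0 with median centring, with only the 6 arrays, with array weights and with an intensity trend and robust prior. In deficient against excess pigs the count of 5 was 1 with median centring, 1 with only the 6 arrays, 2 with array weights, 1 with the array SD as a covariate, 3 with the trend and robust prior, 3 without the dimmest 25 percent of probe sets and 1 with centring on the brightest 25%. Leaving out 1 pig at a time gave counts of 1 to 4 in deficient against adequate, 0 to 4 in excess against adequate and 1 to 11 in deficient against excess pigs. In deficient against adequate pigs the count was 2 without deficient pig 2, 3 without adequate pig 5, 2 without adequate pig 7 and 4 without excess pig 11. In excess against adequate pigs it was 0 without any 1 of the deficient pigs and 4 without excess pig 9. In deficient against excess pigs it was 1 without deficient pig 1 or 2 or adequate pig 6, 3 without deficient pig 3 or adequate pig 5 or 7, 11 without excess pig 9, 10 without excess pig 10 and 2 without excess pig 11. Over all probe sets this comparison had 784 higher and 340 lower in the main fit. There were 566 and 331 without deficient pig 3, and 576 and 447 without excess pig 11. Where no number over all probe sets is given for an alternative, its count is not read as a result about the factors. The median excess minus adequate difference turned to 0.0462 with centring on the brightest 25%, and that of EIF5A to 0.0291. This centring subtracts 1 constant from each array, so it moved every probe set's difference in a comparison alike. The median over all probe sets went from 0.0006 to 0.1733. Why the arrays differed in their brightest probe sets was not tested. Adjusted p-values were followed for the 17 measured core factors and the 6 factors of smallest p in each comparison. None of these reached an adjusted p below 0.05 in limma under any alternative, the lowest being 0.264. Among the values of these genes, 9 of 342 changed sign in deficient against adequate, 33 of 360 in excess against adequate and 21 of 342 in deficient against excess pigs. No paired analysis was possible because the diets share no pig numbers. Array counts limit precision: the median standard error of a difference was 0.134.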

Other observations

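The order of the 3 diet means was also read gene by gene. The deficient mean lay above the adequate mean and the adequate mean above the excess mean in 21 of the 38 factors, or 55.3%, an order found in 18.4% of all probe sets and 34.1% of the brightest 25%. The opposite order was found in 1 factor (EIF4ENIF1), against 15.6% of all probe sets and 7.45% of the brightest 25%. Without excess pig 11 the first order held in 11 of the 38 factors, or 28.9%, against 19.1% of all probe sets and 21.2% of the brightest 25%, and the opposite order in 2 (EIF1AD and EIF3K), against 17.4% and 21.0%. EIF2S1, EIF2S2 and EIF2B5 followed the first order with and without pig 11. EIF2S3, EIF2B1 and EIF2B2 followed it with all pigs, but without pig 11 their excess minus adequate differences were 0.05, 0.09 and 0.11.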
